A study of Homo sapiens with 12 samples.

Results

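The mitochondrial ribosomal proteins analysed here were the genes whose names carry MRPL (large subunit) or MRPS (small subunit) followed by a number, with at least 10 counts summed over the ribosome footprint (RF) libraries and at least 10 over the total RNA libraries. Of 78 gene rows with such a name among the 20212 of the count table, 76 were kept, which were 47 MRPL and 29 MRPS genes among 13329 genes tested. The names follow tradition, and MRPS30 and MRPS18A are nonetheless proteins of the large subunit. The other two were second rows named MRPL30 and MRPS17, without an RF count in any library. PANC-1, an established line from a human pancreatic ductal tumour, was grown in DMEM with fetal bovine serum and given DMSO or 50 nM rapamycin, an inhibitor of the kinase mTOR, for 60 min. Each arm held 3 cultures, and every culture gave 1 RF and 1 total RNA library, 12 in all. All values come from this single cell line, and nothing states how far the 3 cultures of an arm were independent, so the p-values measure the spread between these cultures.

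Mitochondrial ribosomes translate the few membrane proteins that mitochondrial DNA encodes, all of them subunits of the respiratory chain and the ATP synthase. Their protein subunits are encoded in the nucleus, translated by cytosolic ribosomes and imported, and many have no counterpart in bacteria. Cytosolic ribosomal protein messages begin with a terminal oligopyrimidine (TOP) tract, which places their translation under mTOR, and mitochondrial ribosomal proteins have also been described among the messages whose translation depends on mTOR. The comparison asked whether a short rapamycin exposure altered the translation efficiency (TE, RF over total RNA) of each subunit's message.

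The 5′ ends of the messages came first, since TOP control acts there. For 74 of the 76 genes the isoform with the highest mean FPKM (total RNA fragments scaled for transcript length and library depth) could be placed on GENCODE transcripts in GRCh37. A TOP start, taken as C followed by at least 4 further C or T, was present in 1 of 46 MRPL and 1 of 28 MRPS isoforms (MRPL44 and MRPS33), beside 4.03% of 13058 tested genes and 39 of 83 cytosolic ribosomal protein genes. Annotated ends gave a TOP start to only 39 of 83 cytosolic ribosomal protein genes, so they cannot show its absence elsewhere. A looser run, at least 5 C or T starting within the first 4 bases, was in 6 MRPL and 5 MRPS isoforms. That run was in 13.9% of all genes tested and in 46 of 83 cytosolic ribosomal protein genes. ATGGCGG lay within the first 30 bases of 7 MRPL and 6 MRPS isoforms, against 2.83% of all genes tested. The same motif with AAG directly before it and C directly after it was found in 3 MRPL and 4 MRPS isoforms, against 0.773% of all genes. Only the transcript strand was searched, and the shorter motif is contained in the longer. In 12 of the 13 genes with ATGGCGG its ATG was the annotated start codon, so that the leader ended at the motif. The exception was MRPL42. A start codon embedded in such a motif a few bases from the cap is the arrangement known as TISU, described for short-leader messages. The first 30 bases of the 7 isoforms with the longer motif are shown with ATGGCGG in capitals, because they carry the feature these messages share, followed by both TOP-starting ends with the pyrimidine run in capitals. Positions are GRCh37.
MRPL22 (chr5:154320655-154320684, + strand): agcgggagggcgaaagATGGCGGcggcagt
MRPL38 (chr17:73900936-73900965, − strand): ggagggaagATGGCGGcgccctggtggcga
MRPL46 (chr15:89010590-89010619, − strand): gagaacgaaagATGGCGGcgcccgtaaggc
MRPS10 (chr6:42185570-42185599, − strand): gggaccggcaagATGGCGGcgcggacagcg
MRPS18A (chr6:43655499-43655528, − strand): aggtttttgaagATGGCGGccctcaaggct
MRPS24 (chr7:43909087-43909116, − strand): cccgcgctccgcttggcccaagATGGCGGc
MRPS30 (chr5:44809049-44809078, + strand): ggaatcgcgggcaaagATGGCGGcggccag
MRPL44 (chr2:224822180-224822209, + strand): CTCTCgtgcaatggcgtccgggctggtaag
MRPS33 (chr7:140714723-140714752, − strand): CTTCCgggacgagggcgcgtgggtgaggaa

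The leaders, the untranslated stretches before the start codon, were short. Among isoforms with an annotated coding sequence the median leader was 54 nt over 43 MRPL genes (range 5 to 193 nt) and 29 nt over 25 MRPS genes (range 7 to 257 nt), while over 11284 genes tested it was 137 nt. A leader under 30 nt was present in 19 MRPL and 13 MRPS genes and in 11.0% of all genes tested. These lengths follow the annotated start of the isoform and were not measured in PANC-1. They include isoforms annotated as nonsense-mediated decay, such as that of MRPS14 (7 nt), which also carries ATGGCGG. Of the 32 genes with a leader under 30 nt, 12 carried ATGGCGG and 20 did not, while MRPL42 had the motif and a leader of 138 nt.

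**Figure D1:**
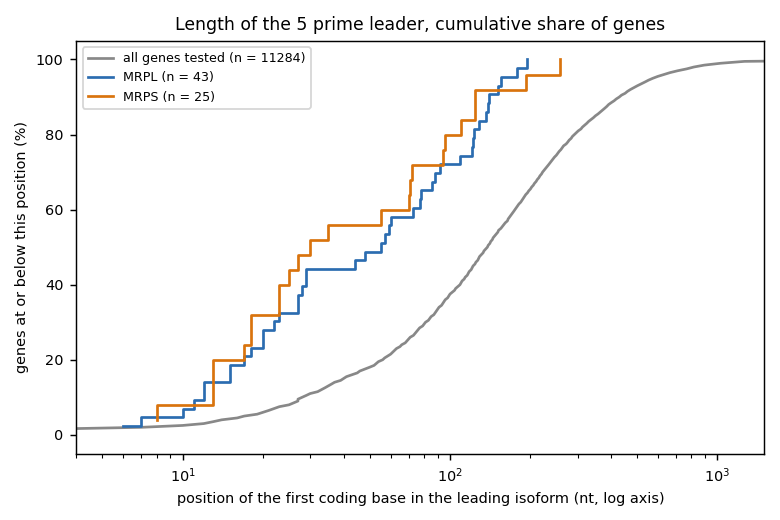
Cumulative share of genes (y axis, %) by the position of the first coding base in the leading isoform (x axis, nt, log axis) for MRPL genes (blue), MRPS genes (orange) and all genes tested (grey). Both families lie left of the grey curve, with median leaders of 54 and 29 nt beside 137 nt.

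Upstream of the start site, 67 of the 76 genes matched a RefSeq promoter (GRCh38.p14, 250 bases before to 50 after the start, searched on both strands). The ETS-factor core CCGGAAG was present in 16 of 40 MRPL and 12 of 27 MRPS promoters, beside 18.4% of 9905 promoters of tested genes and 10.7% of 27305 promoters in all. The palindrome bound by nuclear respiratory factor NRF1, GCGCA followed at once by TGCGC, was present in 1 of 40 MRPL and 0 of 27 MRPS promoters, beside 2.19% of tested genes. The E-box CACGTG was found in 5 MRPL and 1 MRPS promoters, beside 10.0% of tested genes. TATAAA was in 1 promoter of each family and in 5.66% of tested genes. Windows around ETS cores are shown for genes described further on, printed on the gene's strand with the core in capitals, which in MRPL52 is its reverse complement.
MRPS10 (chr6:42217867-42217893, − strand): cgctgtaaccCCGGAAGcaatcctgag
MRPS31 (chr13:40771206-40771232, − strand): aggcgccaggCCGGAAGcggaagagag
MRPL20 (chr1:1407321-1407347, − strand): gaccttcgccCCGGAAGtatcgcaggg
MRPS12 (chr19:38930929-38930955, + strand): cggatagcgcCCGGAAGaggctagaag
MRPL52 (chr14:22829872-22829898, + strand): gccacgcctaCTTCCGGctaccccggc

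The total RNA libraries held 78081241 to 94293744 counts and the RF libraries 278835 to 1574723, so footprint counts set the precision of every TE value. The median MRPL gene had 211 RF counts and 21038 RNA counts over all libraries, and the median MRPS gene 241 and 28800. In DMSO the median coefficient of variation between cultures was 47.6% for RF and 3.06% for RNA in MRPL genes, and 37.3% and 3.13% in MRPS genes. The RF library of DMSO culture 2 stood apart. It held 881106 counts but detected 12568 genes, where the rapamycin library of 792690 counts detected 15402. In that library 6 MRPL genes and 1 MRPS gene were at 0, among them MRPL48 (61 counts in DMSO culture 3) and MRPS14 (32 counts). The total RNA libraries of DMSO cultures 1 and 2 detected 16840 and 16858 genes against 19751 to 19847 in the other four. Duct and epithelial keratins were high in total RNA (KRT8, KRT18 and KRT19 at median FPKM of 1720, 1580 and 1390) and 7 of 9 duct or epithelial markers reached 1 FPKM, while the ductal gene CFTR did not. No acinar, endocrine or endothelial marker with a value reached 1 FPKM, and among immune markers CD68 alone did.

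Messages of the subunits were present at moderate and unequal levels. In DMSO, MRPL messages had a median of 43.9 FPKM (range 6.19 to 122) and MRPS messages 45.5 FPKM (range 11.8 to 194), beside 11.1 FPKM over all genes tested. The highest were MRPS12, the protein at the decoding centre, MRPL20 and MRPL51 of the large subunit and MRPS24, the homologue of bacterial S3. MRPS12 was at 192, 194 and 195 FPKM in the DMSO cultures and at 189, 187 and 201.3 FPKM under rapamycin. MRPL20 was at 127, 119 and 120 FPKM in DMSO and at 114, 109 and 118 FPKM under rapamycin. MRPL51 was at 116, 117 and 115 FPKM and then at 115, 105 and 113 FPKM, and MRPL20 and MRPL51 did not overlap within DMSO. MRPS24 was at 110, 111 and 107 FPKM in DMSO and 103, 102 and 109 under rapamycin.

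The lowest messages were MRPL30 and MRPL50 among MRPL genes and MRPS31 and MRPS14 among MRPS genes. MRPL50, a protein absent from bacteria, was at 7.32, 7.69 and 8.14 FPKM in DMSO. MRPL30 was at 2.80, 8.19 and 7.59 FPKM, overlapping MRPL50, and all of its coding bases are shared with other counted genes. MRPS31 was at 11.8, 12.05 and 11.4 FPKM and MRPS14 at 14.7, 14.3 and 14.9 FPKM, without overlap. A single annotated isoform dominated most genes. In 10 of 74 genes that isoform was not annotated as protein coding, but as retained intron, nonsense-mediated decay or without a defined coding sequence. The leading isoform carried a median of 70.8% of MRPL and 75.4% of MRPS FPKM in DMSO, against 57.3% over all genes. Its share differed without overlap between DMSO and rapamycin in 3 of 46 MRPL genes (MRPL13, MRPL35 and MRPL40) and 2 of 28 MRPS genes (MRPS9 and MRPS18A, genes named here after their values were seen), beside 9.50% of all genes.

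Footprints per kilobase of coding sequence followed these levels in part. In DMSO the median was 77.2 CPM (counts scaled for library depth) per kb over MRPL genes and 71.0 over MRPS genes, beside 11.4 over all genes tested. MRPS12 had the highest density, 488 ± 129 CPM per kb (SD, n = 3), and MRPL38 the lowest, 2.59 ± 2.70. Of the coding bases of MRPL38, 94.1% lie in exons of another counted gene, so its counts may be partial, and its RNA value of 13.0 CPM stood beside 41.3 FPKM. Across genes, Spearman's rho between FPKM and footprint density in DMSO was 0.65 over 47 MRPL and 0.56 over 29 MRPS genes. Both values share the cultures and the gene models, and genes are not independent replicates.

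**Figure D2:**
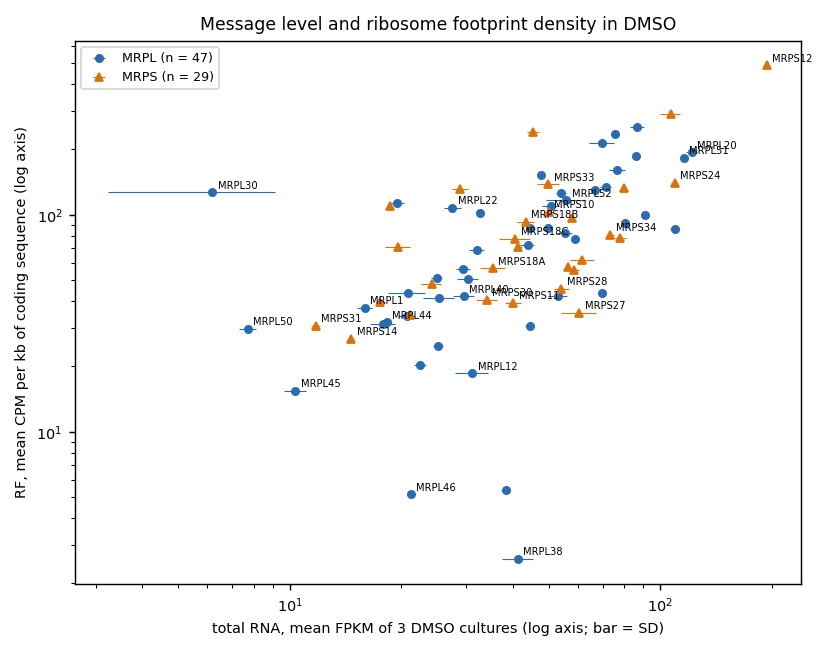
Mean total RNA in FPKM of the 3 DMSO cultures (x axis, log axis, bars are SD) against mean RF CPM per kb of coding sequence (y axis, log axis) for MRPL genes (blue circles) and MRPS genes (orange triangles), with the genes named by rule labelled. MRPS12 is highest on both axes, and MRPL38, with 94.1% of its coding bases in another counted gene, is lowest in RF at 41.3 FPKM.

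Together the MRPL genes took 0.214% ± 0.0125 of RF counts in DMSO and 0.224% ± 0.00413 under rapamycin (SD, n = 3 each). The MRPS genes took 0.155% ± 0.0102 and 0.163% ± 0.00837. The single libraries ran from 0.200% to 0.222% and from 0.220% to 0.228% for MRPL, and from 0.145% to 0.166% and from 0.155% to 0.171% for MRPS, so the arms overlapped in both families.

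TE levels in DMSO lay above those of most genes. The fitted log2 TE had a median of 0.0073 over MRPL and −0.11 over MRPS genes, with −0.58 over all genes tested, and 36 of 47 MRPL and 23 of 29 MRPS genes lay above that median. Cytosolic ribosomal protein genes lay there too, with a median of 0.051 and 63 of 85 above the all-gene median. RNA counts include untranslated exons, so levels are not like for like between genes with short and long untranslated regions. For 35 of the MRPL and MRPS genes a pseudogene is annotated, and only unique reads were counted. Whether that affected their levels was not tested. By edgeR's quasi-likelihood fit, with p-values adjusted after Benjamini and Hochberg over all genes, 10 MRPL genes had a TE level below 0 and 4 above it at an adjusted p under 0.05, beside 42.7% and 21.3% of all genes. Among MRPS genes 5 were below and 5 above. At an unadjusted p under 0.05 the counts were 10 and 7 for MRPL and 5 and 5 for MRPS, beside 45.1% and 22.5% of all genes. A log2 TE of 0 means an equal share of RF and RNA counts, and it moves with the scaling. With TMM (trimmed mean of M values) scaling over all 12 libraries the medians were 0.57 and 0.46, and the counts became 3 lower and 17 higher MRPL genes and 2 lower and 10 higher MRPS genes, beside 24.3% and 28.5% of all genes. limma's voom called 8 MRPL genes lower and 2 higher and 3 MRPS genes lower and 1 higher, beside 34.8% and 19.4% of all genes.

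MRPL22, which lines the peptide exit tunnel, and MRPL1, which forms the mobile L1 stalk, had the highest TE levels of MRPL genes in DMSO. MRPL22 had a log2 TE of 1.96, −0.83 and 1.82 in the DMSO cultures, and culture 2 lay far below the others. Its fitted level was 1.34 ± 0.35 (SE, edgeR adjusted p = 0.00424). MRPL1 had −0.18, 1.06 and 1.53, with a fitted level of 1.16 ± 0.34 (edgeR adjusted p = 0.00824). Neither call held without DMSO culture 1 (1.01 for MRPL22, 1.24 for MRPL1), DMSO culture 3 (0.57 and 0.67) or rapamycin culture 3 (1.30 and 0.99). At the other end, MRPL38 was fitted at −2.49 ± 0.55 and MRPL46, which has a Nudix fold, at −1.64 ± 0.57 (edgeR adjusted p = 0.00133 and 0.0214). Both had 0 RF counts in DMSO culture 2, and without that culture MRPL46 was at −1.10 and not called, while MRPL38, whose counts may be partial, stayed called at −1.97. The MRPL46 call was also lost with TMM over all libraries (−1.07), and voom called neither MRPL46 (−2.09), MRPL1 (0.98) nor MRPL22 (0.82).

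Among MRPS genes MRPS31 and MRPS28 were highest and MRPS27 and MRPS10 lowest. MRPS31 had log2 TE values of 1.04, 1.61 and 0.48 in DMSO and a fitted level of 0.92 ± 0.28 (edgeR adjusted p = 0.0113), which without DMSO culture 2 was 0.51 and not called. MRPS28 had 1.27, 0.21 and 1.31, with a fitted level of 0.91 ± 0.32 (edgeR adjusted p = 0.0229), and was not called without DMSO culture 1 (0.83) or DMSO culture 3 (0.47). With voom neither MRPS31 (0.93) nor MRPS28 (0.82) was called. MRPS27, a pentatricopeptide repeat protein, had −0.92, −1.77 and −1.37 and a fitted level of −1.46 ± 0.26 (edgeR adjusted p = 0.000285). MRPS10, the homologue of bacterial S10, had −0.46, −1.37 and −1.34 and a fitted level of −1.15 ± 0.23 (edgeR adjusted p = 0.000589). Under rapamycin MRPS28, MRPS27 and MRPS10 were at 0.99, −1.07 and −1.46. MRPS28 lay above MRPS27 and MRPS10 in all 6 cultures, while MRPS31 had a fitted level of −0.62 there and was not called. Of the genes called in DMSO, 8 of 14 MRPL and 7 of 10 MRPS genes were called with the same sign under rapamycin, beside 6695 of 8526 genes called in DMSO over all genes tested (78.5%). Under rapamycin 41.4% of all genes were called lower and 19.5% higher.

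**Figure D3:**
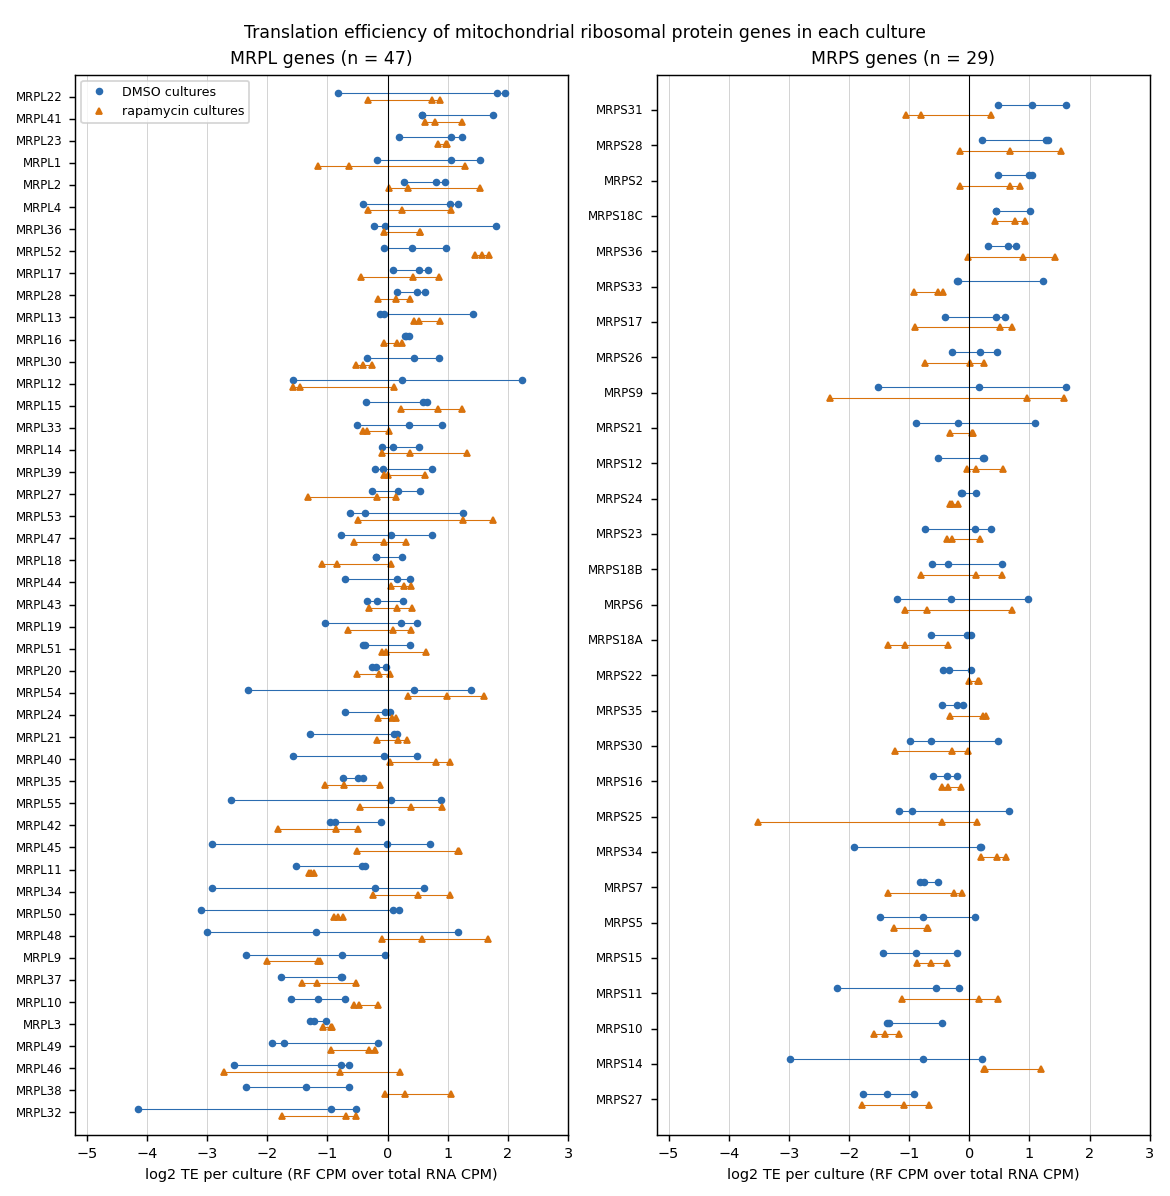
Log2 TE of each MRPL gene (left) and MRPS gene (right) in the 3 DMSO cultures (blue circles) and the 3 rapamycin cultures (orange triangles), with lines joining the lowest and highest culture. Genes are ordered by their DMSO mean, and cultures of the 2 arms overlap in most genes.

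After rapamycin no subunit's TE passed the test. The fitted log2 fold change of TE had a median of 0.072 over MRPL genes (range −2.80 to 2.60, 22 of 47 below 0) and 0.065 over MRPS genes (range −1.54 to 1.30, 13 of 29 below 0), and −0.061 over all genes tested, of which 53.7% lay below 0. By edgeR 0 MRPL and 0 MRPS genes were called at an adjusted p under 0.05 in either direction, and so were 0% of all 13329 genes. At an unadjusted p under 0.05, 1 MRPL gene was lower and 2 higher, and 2 MRPS genes were lower and 1 higher, beside 6.42% of all genes lower and 6.17% higher. The arms did not overlap in log2 TE in 4 MRPL genes (1 lower and 3 higher under rapamycin) and 5 MRPS genes (3 lower and 2 higher), beside 6.19% lower and 4.8% higher of all genes. DESeq2's Wald test called 1 MRPL gene lower, 2 MRPL genes higher and 1 MRPS gene lower, beside 4.41% lower and 4.99% higher of all genes, and limma's voom called 0. Without DMSO culture 3 edgeR called MRPL30 and MRPS31 lower and MRPL52 higher, beside 2.66% lower and 0.522% higher of all genes. The unadjusted 95% interval lay within ±1 on the log2 scale for 15 MRPL and 12 MRPS genes, beside 15.7% of all genes. At this depth the intervals of the others reached beyond 1 or −1, and the interval lay within ±0.25 for 0 MRPL and 0 MRPS genes, beside 0.0075% of all genes. The TE fit shares a variance estimate between RF and RNA libraries, which varied unequally. Its common coefficient of variation was 24.4%, beside 54.9% for RF alone and 5.31% for RNA alone. The median SE over MRPL genes was 0.42 for TE change and 0.50 for RF change alone. Intervals, SEs and p-values of TE changes and TE levels may therefore be too narrow.

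**Figure D4:**
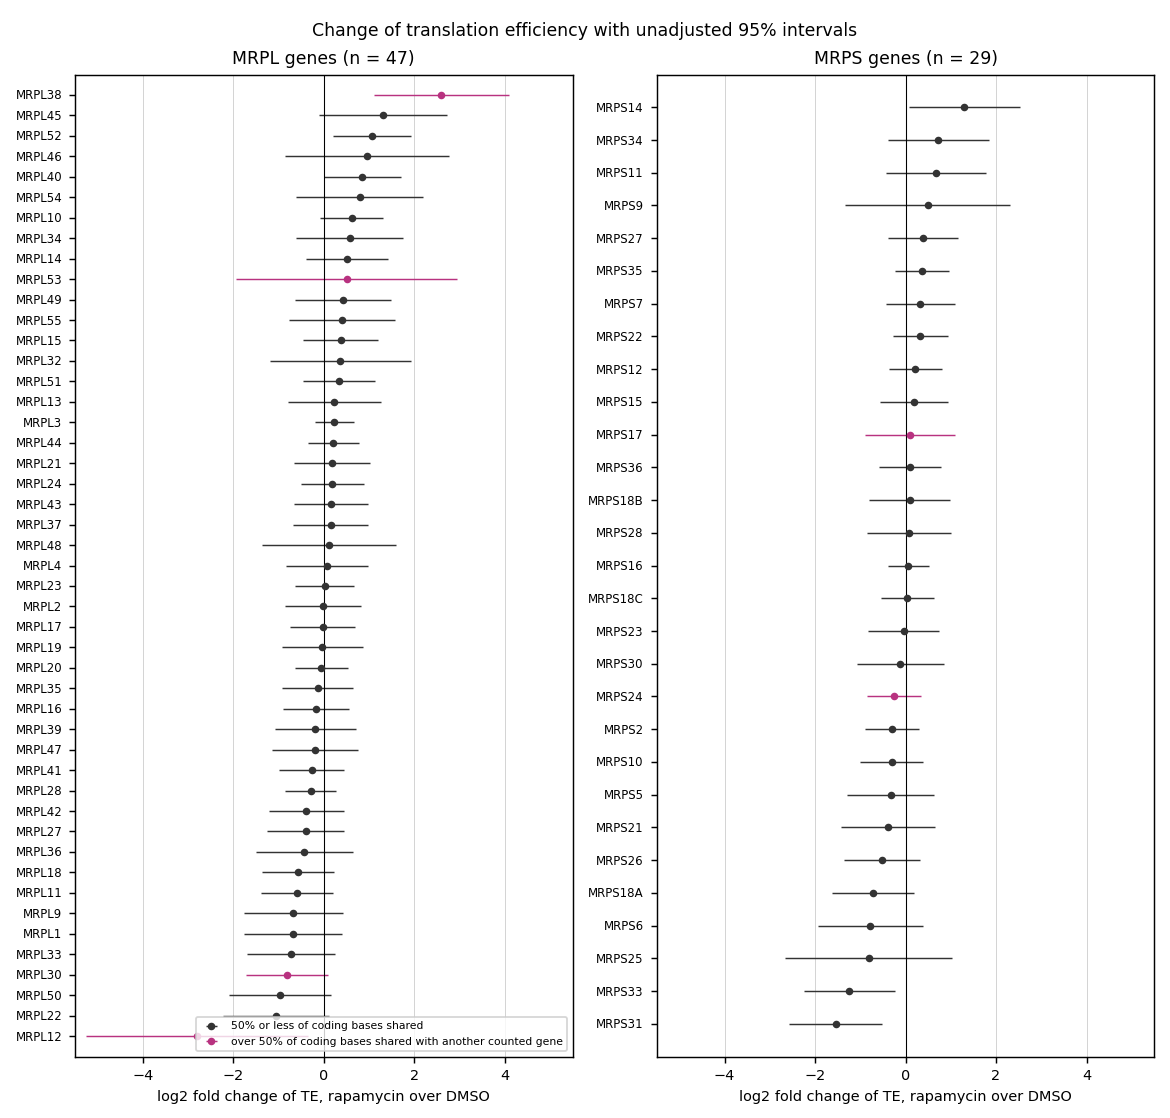
Fitted log2 fold change of TE, rapamycin over DMSO (x axis), with unadjusted 95% intervals for each MRPL gene (left) and MRPS gene (right), and genes with over 50% of coding bases in another counted gene in magenta. The intervals of 44 of 47 MRPL and 26 of 29 MRPS genes include 0.

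Among MRPL genes the smallest p-values belonged to MRPL38, MRPL52 and MRPL40 for higher TE and to MRPL12, MRPL22 and MRPL30 for lower TE. MRPL38 (chr17:73894725-73901174, GRCh37) had RF values of 6.15, 0 and 2.72 CPM in DMSO and 14.1, 9.68 and 23.3 CPM under rapamycin. All rapamycin cultures were above all DMSO cultures, with RNA values of 13.0 ± 0.509 and 12.7 ± 0.652 CPM (SD, n = 3). The log2 fold change of TE was 2.60 ± 0.70 (SE, edgeR adjusted p = 0.231), or 2.10 without DMSO culture 2, and DESeq2 gave an adjusted p of 0.00301 (range over 13 alternatives 0.00301 to 1). These values rest on 2, 0, 4, 17, 8 and 7 footprints, and the shared coding bases mean that the counts may be partial.

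MRPL52, found in mitochondria but not in bacteria, had RF values of 43.1, 25.1 and 59.8 CPM in DMSO and 101, 77.4 and 96.5 CPM under rapamycin. The arms did not overlap. The log2 fold change of TE was 1.07 ± 0.40 (SE, edgeR adjusted p = 0.308, exact permutation p = 0.10, two-sided, the smallest that 3 against 3 cultures allow). DESeq2 gave an adjusted p of 0.0113, and edgeR without DMSO culture 3 a change of 1.57 with an adjusted p of 0.0400, within a range of 0.0113 to 1 over 14 alternatives. None of its coding bases is shared with another counted gene. MRPL40 overlapped between arms and was at 0.85 ± 0.40 (edgeR adjusted p = 0.395), or 0.44 without DMSO culture 2.

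MRPL12, the homologue of the bacterial stalk protein and also described as a partner of the mitochondrial RNA polymerase, had the lowest fitted change. Its RF values were 0, 27.6 and 5.43 CPM in DMSO and 0, 4.84 and 0 CPM under rapamycin, so the arms overlapped and DMSO culture 2 held most footprints. The log2 fold change of TE was −2.80 ± 1.15 (SE, edgeR adjusted p = 0.342) and −1.35 without that culture. At this locus (chr17:79670397-79674547, GRCh37) 96.0% of the coding bases lie in exons of another counted gene, so its counts may be partial, and its RNA value of 6.73 CPM stood beside 31.1 FPKM. MRPL22 was at −1.06 ± 0.55 and MRPL30 at −0.81 ± 0.42 (edgeR adjusted p = 0.442 and 0.448), both with overlapping arms. MRPL22 ran from −1.56 without DMSO culture 2 to −0.29 without DMSO culture 3. Without DMSO culture 3 MRPL30 was at −1.23 with an adjusted p of 0.0400 (range over 14 alternatives 0.0400 to 1), and without DMSO culture 2 at −0.29.

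Among MRPS genes MRPS31, MRPS33 and MRPS18A had the smallest p-values for lower TE and MRPS14, MRPS34 and MRPS11 for higher TE. MRPS31, a mitochondria-specific protein (chr13:41303264-41345326, GRCh37), had RF values of 33.8, 52.8 and 23.1 CPM in DMSO and 8.29, 18.2 and 6.65 CPM under rapamycin. The arms did not overlap, with rapamycin the lower, while total RNA was at 18.0 ± 0.366 and 17.8 ± 1.57 CPM (SD, n = 3). The log2 fold change of TE was −1.54 ± 0.48 (SE, edgeR adjusted p = 0.238), DESeq2 gave −1.62 with an adjusted p of 0.00935, and edgeR gave −2.04 without DMSO culture 3 with an adjusted p of 0.0401, within a range of 0.00935 to 1 over 14 alternatives. MRPS31 was also the MRPS gene with the highest TE level in DMSO, and that level and this change share the DMSO libraries.

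MRPS33, another mitochondria-specific protein and 1 of the 2 genes with a TOP start, had RF values of 24.6, 79.2 and 27.9 CPM in DMSO and 15.8, 20.6 and 20.0 CPM under rapamycin. The arms did not overlap, but the DMSO mean was carried by culture 2. The log2 fold change of TE was −1.24 ± 0.47 (SE, edgeR adjusted p = 0.309) and −0.58 without that culture. MRPL44, the other gene with a TOP start and a protein with a ribonuclease III fold, was at 0.21 ± 0.26 (95% interval −0.36 to 0.77).

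MRPS14, the homologue of bacterial S14, moved the other way in its fitted value. Its RF values were 9.23, 0 and 21.7 CPM in DMSO and 43.1, 21.8 and 20.0 CPM under rapamycin, which gave a log2 fold change of TE of 1.30 ± 0.57 (SE, edgeR adjusted p = 0.371), or 0.79 without DMSO culture 2, 0.72 without rapamycin culture 1 and 3.56 without DMSO culture 3. The arms overlapped in RF, at 21.7 CPM in DMSO culture 3 and 20.0 CPM in rapamycin culture 3, but not in log2 TE, at 0.21 against 0.25 for the nearest cultures. MRPS34 was at 0.73 ± 0.52 and MRPS11, of the small subunit platform, at 0.67 ± 0.52 (edgeR adjusted p = 0.598 and 0.629). Leaving out 1 culture at a time moved MRPS34 from 0.31 (without DMSO culture 2) to 1.26 (without DMSO culture 3) and MRPS11 from 0.30 (without rapamycin culture 1) to 1.11 (without DMSO culture 3).

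The 3 MRPS18 paralogues descend from 1 bacterial S18 gene, and their proteins take different places in the mitochondrial ribosome. The log2 fold change of TE was −0.71 ± 0.42 for MRPS18A, 0.093 ± 0.42 for MRPS18B and 0.035 ± 0.27 for MRPS18C (SE). MRPS18A had log2 TE values of −0.64, −0.03 and 0.02 in DMSO and −0.35, −1.06 and −1.35 under rapamycin, so the arms overlapped in culture 1 of each. MRPS12 was at 0.22 ± 0.27 (95% interval −0.36 to 0.80). MRPS30 was at −0.12 ± 0.45, and MRPL45, which tethers the ribosome to the inner membrane, at 1.31 ± 0.66 (edgeR adjusted p = 0.430). MRPL45 had 0 RF counts in DMSO culture 2 and was at 0.75 without it, and at 0.57 without rapamycin culture 1.

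Genes were also grouped by ancestry and by 5′ end, and no group could hold a called gene, since edgeR called 0% of all genes in TE. The median log2 fold change of TE was −0.047 over 30 MRPL genes with a bacterial homologue (18 below 0) and 0.34 over 17 mitochondria-specific MRPL genes (4 below 0). For MRPS genes it was 0.073 over 18 with a bacterial homologue (7 below 0) and −0.042 over 11 mitochondria-specific genes (6 below 0). The mitochondria-specific MRPL genes include MRPL38, MRPL45 and MRPL46, which had 0 RF counts in DMSO culture 2. Without that culture their TE changes were smaller, at 2.10, 0.75 and 0.44. No ancestry group median without that culture is given here. The 13 genes with ATGGCGG near the cap had a median of −0.25 (range −1.06 to 2.60, 9 below 0), and the 61 placed genes without it 0.093 (25 below 0). Over all 370 tested genes with that motif the median was −0.0057 with 187 below 0. In DMSO the TE level of the 13 genes had a median of −0.31 and that of the 61 a median of 0.0073, and all 370 genes with the motif had −0.80.

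The RF values alone gave no call either. By edgeR 0 MRPL and 0 MRPS genes were called, beside 0% of all genes. At an unadjusted p under 0.05, 1 MRPL gene was higher and 1 MRPS gene lower, which were MRPL52 and MRPS31, beside 1.76% of all genes higher and 1.92% lower. DESeq2's Wald test called 0 of either family. The arms did not overlap in 2 lower and 3 higher MRPL genes and 3 lower and 1 higher MRPS genes, beside 4.21% and 5.24% of all genes. The fitted RF change was below 0 in 23 of 47 MRPL and 16 of 29 MRPS genes, beside 48.7% of all genes. Its 95% interval lay within ±1 for 6 MRPL and 5 MRPS genes (10.9% of all genes) and within ±0.25 for 0 of either (0.015% of all genes). The median log2 fold change of RF was 0.0037 over MRPL genes and −0.086 over MRPS genes, with 0.020 over all genes.

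Total RNA of the subunits was slightly lower after rapamycin in most genes, by amounts that passed the test in none. The fitted log2 fold change was below 0 in 43 of 47 MRPL and 23 of 29 MRPS genes, beside 46.8% of all genes tested. The median was −0.036 over MRPL genes, which is a change of −2.47%, and −0.038 over MRPS genes, −2.62%, with 0.0059 over all genes. All 76 values lay between −0.13 and 0.080. By edgeR 0 MRPL and 0 MRPS genes were called, beside 0% of all genes, and DESeq2's Wald test and limma on FPKM called 0 of either. At an unadjusted p under 0.05, 6 MRPL and 3 MRPS genes were lower and 0 higher, beside 2.51% and 3.32% of all genes. The arms did not overlap in 11 MRPL and 3 MRPS genes with rapamycin lower and in 0 with rapamycin higher, beside 6.61% and 8.22% of all genes. The 95% interval of the RNA change lay within ±1 for every MRPL and MRPS gene and for 85.9% of all genes, and within ±0.25 for 46 MRPL and 29 MRPS genes and for 70% of all genes.

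Both RNA medians stayed below 0 whichever culture was left out, and their size varied. They were smallest for MRPL without rapamycin culture 2 (−0.017, 33 of 47 genes below 0) and for MRPS without DMSO culture 3 (−0.019, 19 of 29 below 0). Without DMSO cultures 1 and 2, whose RNA libraries stood apart, they were −0.045 and −0.036 with 40 and 22 genes below 0. That fit leaves 1 DMSO library, so no p-value from it is given. On the deposited FPKM 36 MRPL and 24 MRPS genes were below 0, beside 59.2% of 10717 genes with a mean of at least 1 FPKM. Without that minimum the same numbers of members were below 0, beside 52.7% of 13294 genes. For 85 cytosolic ribosomal protein genes 76 fitted RNA changes were below 0 with a median of −0.041. Their TE change had a median of −0.076 with 48 of 85 below 0, and 0 were called.

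**Figure D5:**
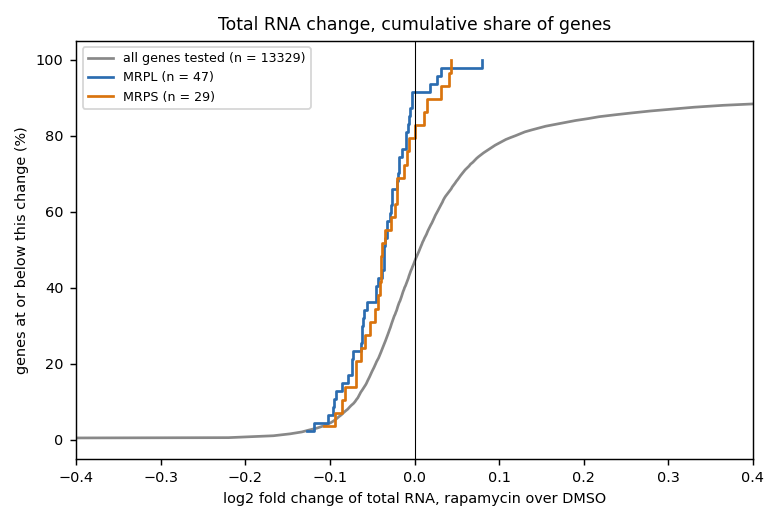
Cumulative share of genes (y axis, %) by fitted log2 fold change of total RNA, rapamycin over DMSO (x axis), for MRPL genes (blue), MRPS genes (orange) and all genes tested (grey). Of the MRPL genes 43 of 47 and of the MRPS genes 23 of 29 lie left of 0, with every value between −0.13 and 0.080.

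Other genes of mitochondrial translation were taken from lists by function. Again 0 were called by edgeR in TE, RF or total RNA, as were 0% of all 13329 genes. Of 7 mitoribosomal proteins under other symbols, 6 had a TE change above 0. MRPL57 was at 1.46 ± 0.45 and MRPL58, a former release factor that became a subunit, at 1.03 ± 0.42 (SE, edgeR adjusted p = 0.238 and 0.344), and GADD45GIP1 was at 0.79 ± 0.38. Of 17 translation factors, 12 lay below 0 with a median of −0.19. MTIF2, the initiation factor, was at 3.29 ± 1.01, TSFM, the elongation factor Ts, at −0.78 ± 0.34 and MTRF1, a release factor, at −2.82 ± 1.32 (edgeR adjusted p = 0.238, 0.360 and 0.397). MTIF2 rested on 18, 5 and 9 footprints in DMSO and 40, 98 and 91 under rapamycin. Scaled for library depth, its arms overlapped in RF and in log2 TE. MTRF1 rested on 6, 0 and 10 footprints in DMSO and on 0, 1 and 1 under rapamycin.

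Of 26 assembly and rRNA modification factors, 13 lay below 0 with a median of 0.039. MTG2, a GTPase of large subunit assembly, was at 2.53 ± 0.52, METTL17, a small subunit assembly factor, at 1.46 ± 0.47 and MRM1, an rRNA methyltransferase, at 2.03 ± 0.87 (SE, edgeR adjusted p = 0.180, 0.244 and 0.358). RBFA, a small subunit assembly factor, was at −0.93 ± 0.42 (edgeR adjusted p = 0.380). MTG2 rested on 1, 9 and 3 footprints in DMSO and 41, 21 and 4 under rapamycin, and MRM1 on 0, 3 and 1 and on 9, 6 and 0. Of 10 tested genes of mitochondrial DNA transcription and maintenance, 3 lay below 0 with a median of 0.15, and POLG, the mitochondrial DNA polymerase, was at 0.92 ± 0.33 (edgeR adjusted p = 0.280). PNPT1 and SUPV3L1, which degrade mitochondrial RNA, were at 0.33 ± 0.40 and 0.42 ± 0.55. Total RNA lay below 0 in 6 of 7, 14 of 17, 19 of 26 and 8 of 10 genes of these lists.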

How the data were processed

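Ribosome footprints and total RNA were sequenced from PANC-1 cultures. Per the study's methods, the authors removed linker, short and rRNA reads, aligned to GRCh37 with HISAT2 and made the deposited counts with featureCounts from unique reads on exons of protein-coding genes. Whether counting used strand is not given in the sources used here. The deposited FPKM values came from Cuffnorm (Cufflinks 2.2.1). The authors' RiboDiff columns (p-values, TE values and TE fold changes) and both Cuffnorm count tables were not used.

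Genes with at least 10 summed counts in RF and in RNA entered edgeR 4.0.16 quasi-likelihood fits (robust, TMM within each library type, R 4.3.3). TE change was the library type by treatment interaction over 12 libraries, RF and RNA changes were fitted in their own libraries, and p-values were Benjamini-Hochberg adjusted over all 13329 genes at 0.05. For log2 TE of single cultures, a prior count of 2 was added. DESeq2 1.42.0, limma 3.58.1 and the settings of the closing section were alternatives. Scripts were tested on simulated data. Depth did not remove counting error from RF values: the median MRPL gene had 11 counts in the RF library of rapamycin culture 3.

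Leaders, coordinates and shared coding bases came from GENCODE annotation on GRCh37, with 2 genes matched by symbol. Genes were named by rule: within each family the 3 smallest p-values for lower and for higher TE, the 2 highest and lowest TE levels and FPKM, and 8 chosen for their roles. Members and lists were chosen with earlier results of these data known. The level of 1 further marker gene is not reported here.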

Additional observations from a re-analysis of the deposited data

How the results depend on the processing

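With DESeq2's Wald test, TE calls were MRPL11 (−0.64, named after its value was seen) lower and MRPL38 and MRPL52 higher, that is 1 lower and 2 higher of MRPL, and MRPS31, 1 lower of MRPS. Leaving out 1 culture at a time gave 0 to 1 lower and 0 to 1 higher MRPL calls and 0 to 1 lower MRPS calls for TE, the calls arising without DMSO culture 3, which held the deepest RF library. That setting left only DMSO cultures 1 and 2, whose RNA libraries stood apart, as controls. In total RNA it called 683 of 12461 genes higher and 4 lower, 0 of them MRPL or MRPS, against 0 genes in the main fit. The MRPL median of the TE change was −0.059 with TMM over all 12 libraries, where the median of all genes was −0.14, against 0.072 and −0.061 with TMM within type. When 1 culture was left out the median TE change ran from −0.015 to 0.15 for MRPL and from −0.078 to 0.14 for MRPS, turning sign in both, and without DMSO culture 2 the MRPS median was −0.062 with −0.042 over all genes. The MRPL median of the RF change ran from −0.043 to 0.13 when 1 culture was left out. TE levels in DMSO with TMM over all libraries had medians of 0.57 (3 lower, 17 higher) for MRPL and 0.46 (2 lower, 10 higher) for MRPS. Leaving out 1 culture gave 2 to 6 higher MRPL and 2 to 5 higher MRPS calls for the level. Over all genes it gave from 2334 of 13134 (without DMSO culture 1) to 2655 of 12661 (without rapamycin culture 1). A 60-count filter gave 2 higher MRPS calls, beside 1335 of 7971 genes. With voom there were 2 higher MRPL, 3 lower MRPS and 1 higher MRPS calls, beside 34.8% lower and 19.4% higher of all genes. The cause was not tested.

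Of the genes named for their roles, the TE change turned sign in MRPS18C (−0.043 with TMM over all libraries, −0.21 to 0.25 leaving out 1 culture), MRPS12 (−0.014 to 0.37), MRPS18B (−0.24 to 0.57) and MRPS30 (−0.38 to 0.48).

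Deviations from the arm mean in same-numbered cultures had correlations of −0.12, −0.061 and −0.074 in RF and −0.11, −0.12 and −0.22 in RNA. Differently numbered cultures ran from −0.021 to 0.091 in RF and from −0.13 to 0.19 in RNA. Deviations within an arm sum to 0, which constrains these values, so they cannot settle whether replicate numbers paired the cultures. With the replicate block 0 MRPL and 0 MRPS genes were called in TE, RF or RNA, and the TE medians were 0.053 and 0.037. A culture block, which pairs the RF and RNA library of each culture, also gave 0 calls, with TE medians of 0.076 for MRPL and −0.0078 for MRPS, and took the genes at an unadjusted p under 0.05 from 3 to 2 for MRPL and from 3 to 0 for MRPS, while 475 of all genes passed that p, against 856 lower and 823 higher without the block. The fit without DMSO cultures 1 and 2 was chosen after seeing the data.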
